A study of Mus musculus with 6 samples.

Results

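The genes examined here encode the enzymes that make NADPH, together with *Nnt*, the member whose transcript differed most between the genotypes. They are *Nnt*, *Idh1*, *Idh2*, *Me1*, *Me2*, *Me3*, *G6pdx*, *Pgd*, *Nadk* and *Nadk2*, found by their deposited gene names. The 10 names match 11 of the 54167 rows of the table, because *Nnt* has 2 gene IDs, and 9 rows passed the filter of at least 1 TPM in at least 3 tumors, as did 15117 rows of the whole table. The members were chosen by their place in NADPH metabolism and with the TPM of these same tumors in view, *Nnt* for its difference between the genotypes. Their own differences are therefore described without a p-value.

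The tumors were colorectal tumors induced by azoxymethane (AOM), a carcinogen, and dextran sulfate sodium (DSS), which injures the colonic epithelium. Male mice received 10 mg/kg AOM at 8 weeks of age, then 3 cycles of 2.5% DSS for 7 days each, and tumors were taken on day 98. In both groups the *Trp53* alleles are flanked by loxP sites. The 3 *Trp53fl/fl* tumors came from mice without Cre, whose *Trp53* is intact, and the 3 *VP* tumors from mice with *Pvillin-Cre*, which deletes *Trp53* in cells that express villin, the intestinal epithelium, and leaves it in stromal and immune cells. The strain label is C57BL/6J for all 6 tumors. According to the methods, the *Trp53fl/fl* line and the *Pvillin-Cre* line came from different suppliers, and *VP* mice from their cross. Values are TPM, transcript abundances scaled for transcript length and library size, so that levels can be compared between genes. They carry no read number, so the depth of each tumor is unknown. The labels do not say whether the tumors of a genotype came from separate mice, and p-values measure only the spread between these tumors, which may be technical.

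NADPH is the reductant of glutathione and thioredoxin recycling and of fatty acid, sterol and nucleotide synthesis. In the cytosol it comes mainly from the oxidative pentose phosphate pathway (G6PDX and PGD), from malic enzyme 1 and from isocitrate dehydrogenase 1. In mitochondria it comes from isocitrate dehydrogenase 2, malic enzymes and NNT, the nicotinamide nucleotide transhydrogenase, which uses the proton gradient of the inner membrane to pass electrons from NADH to NADP. NAD kinases make the NADP itself. *Nnt* is known for a deletion of internal exons in C57BL/6J mice, which other substrains such as C57BL/6N do not carry.

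The targeted gene followed the labels. *Trp53* was at 124.94, 99.30 and 147.45 TPM in the *Trp53fl/fl* tumors and at 38.45, 32.79 and 27.83 TPM in *VP* tumors (log2 fold change -1.87). Of the 15117 genes, 25 (0.165%) had an adjusted p-value under 0.05 in limma, 12 higher (0.0794%) and 13 lower (0.086%) in *VP* tumors. The split was 13 higher against 9 lower with median-of-ratios rescaling and 15 against 29 with centring on epithelial markers. The median over all genes of the log2 fold change, *VP* minus *Trp53fl/fl* on the log2(TPM + 1) scale, was -0.070, and 60.8% of genes had a value below 0. The epithelial identity of the tissue was clear in each tumor, as 12 epithelial markers summed to 10628 to 10954 TPM in *Trp53fl/fl* tumors and to 12069 to 13063 TPM in *VP* tumors, with a median log2 fold change of 0.15. The 10 neutrophil markers summed to 367 to 698 TPM in *Trp53fl/fl* tumors and to 1144 to 1974 TPM in *VP* tumors. Most of this sum in each tumor came from *S100a8* and *S100a9*. Of the 8 tested markers, 6 were higher in every *VP* tumor, beside 6.03% of all genes tested. Among the 6 was *Camp*, which was listed at 0 in all *Trp53fl/fl* tumors and passed the filter only through the *VP* tumors. *Csf3r* and *Ly6g* overlapped between the genotypes, *Mpo* and *Elane* were at 0.36 TPM or less in every tumor, and no marker had a limma adjusted p-value under 0.05 (lowest 0.0521). The part of these cells in the values below was not tested. In bulk tumors, fewer cells of a type and less RNA per cell cannot be told apart.

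*Nnt* (ENSMUSG00000025453) lies on the minus strand of chromosome 13 between 119335448 and 119408997 (GENCODE M21, GRCm38). A gene-level TPM sums the transcripts of a gene, and which ones the authors' annotation held is not given. In GENCODE M21 the longest coding form under this ID is Nnt-202, with 17 exons, 3464 bases and 2505 coding bases. The next is Nnt-201, with 15 exons, 3122 bases and 2163 coding bases. Nnt-201 lacks 2 exons, of 342 bases in all, which follow exon 7. Both forms are annotated in the reference strain C57BL/6J, so these 2 exons are not those of the deletion named above. The junctions that tell these forms apart are shown because the deposited value cannot separate them. Each run holds the last 30 bases of exon 7 (chr13:119381676-119381863, minus strand) in lower case and the first 30 bases of the next exon in capitals, 5′ to 3′, from the GENCODE transcripts of the reference strain C57BL/6J.
Nnt-201: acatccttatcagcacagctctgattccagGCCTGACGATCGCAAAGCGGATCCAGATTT
Nnt-202: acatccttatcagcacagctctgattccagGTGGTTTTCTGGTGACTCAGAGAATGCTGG
A second *Nnt* entry, ENSMUSG00000116207, covers nearly the same interval (119335528 to 119408952) with 1 transcript of the same 2505 coding bases. It was listed at 0 in all 6 tumors. Reads of these overlapping entries cannot be told apart at the gene level, and reads from exons that the reference strain lacks have no place in this annotation.

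*Nnt* was at 24.96, 24.74 and 29.13 TPM in the *Trp53fl/fl* tumors and at 8.87, 9.28 and 11.02 TPM in *VP* tumors. Every *VP* tumor was below every *Trp53fl/fl* tumor, and the distance between the genotypes was several times the spread within either. The means were 26.3 ± 2.47 TPM and 9.72 ± 1.14 TPM (SD, n = 3 each), so that *VP* tumors held 37.0% of the *Trp53fl/fl* level. Its log2 fold change was -1.35 (standard error 0.14), the 91st lowest of the 15117 genes. *Nnt* was the member with the largest difference, and the next was *Me1* with -0.66. Leaving out any single tumor kept this value of *Nnt* between -1.43 and -1.27.

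**Figure D1:**
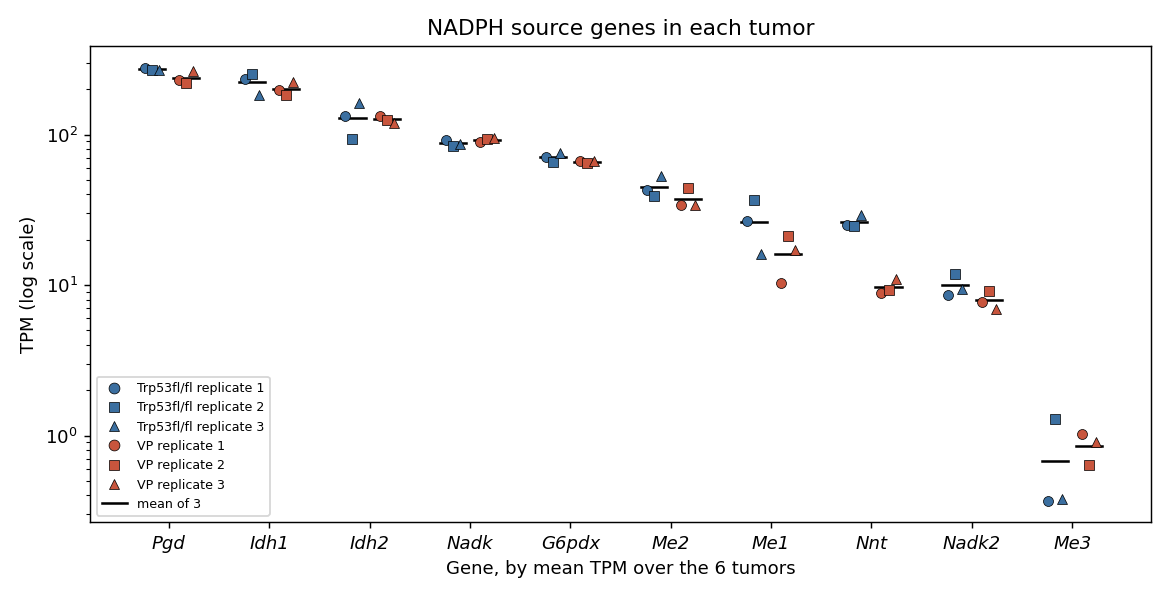
TPM of each NADPH source gene in the 6 tumors on a log axis, ordered by mean level, with 1 point per tumor and a line at the mean of 3. *Nnt* separates the genotypes (24.74 to 29.13 against 8.87 to 11.02 TPM), while the other members except *Pgd* overlap.

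Separation of the genotypes was seen for 2 of the 10 members, *Nnt* and *Pgd*, both lower in *VP* tumors. Over all genes tested, 19.3% separated, 13.3% lower and 6.03% higher in *VP* tumors. Among the members, 8 had a lower and 2 a higher mean log2 value in *VP* tumors, and *Me3*, below the filter, was among the 2. Of all genes tested, 60.8% had a lower mean log2 value in *VP* tumors. The median log2 fold change of the 9 tested members was -0.19, beside -0.070 for all genes. It was -0.12 with median-of-ratios rescaling, which moved the median of all genes to -0.0074.

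The enzymes of the oxidative pentose phosphate pathway were abundant and steady. *Pgd* (ENSMUSG00000028961, chromosome 4 from 149149991 to 149166771), 6-phosphogluconate dehydrogenase, was the most abundant member. It was at 278.72, 270.65 and 267.96 TPM in *Trp53fl/fl* tumors and at 230.06, 221.84 and 266.48 TPM in *VP* tumors. The genotypes did not overlap, but *VP* replicate 3 lay just below the lowest *Trp53fl/fl* tumor. The log2 fold change of *Pgd* was -0.19 (standard error 0.11). *G6pdx* (ENSMUSG00000031400, chromosome X from 74409483 to 74429194), glucose-6-phosphate dehydrogenase and the entry step of the pathway, was at 71.20, 66.15 and 74.88 TPM and at 66.66, 64.83 and 66.82 TPM. These ranges overlapped, and the highest tumor held 1.16 times the level of the lowest. Its log2 fold change was -0.095 (standard error 0.097). In each tumor *Pgd* exceeded *G6pdx*, by 3.86 ± 0.261 times in *Trp53fl/fl* and 3.62 ± 0.319 times in *VP* tumors (SD, n = 3 each).

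The malic enzymes were more variable. *Me1* (ENSMUSG00000032418, chromosome 9 from 86581371 to 86695953), the cytosolic enzyme that turns malate into pyruvate, was at 26.53, 36.73 and 15.99 TPM in *Trp53fl/fl* tumors and at 10.26, 21.04 and 17.09 TPM in *VP* tumors. The genotypes overlapped, and the values spread over 3.58-fold among the 6 tumors, the widest range of any member, with *Trp53fl/fl* replicate 2 highest and *VP* replicate 1 lowest. Its log2 fold change of -0.66 had a standard error of 0.35 and lay between -0.97 and -0.38 when single tumors were omitted. *Me2* (ENSMUSG00000024556), a mitochondrial enzyme that works with NAD or NADP, was at 42.97, 39.30 and 52.96 TPM and at 33.86, 44.30 and 33.96 TPM, again with overlap. The log2 fold change of *Me2* was -0.26 (standard error 0.16). *Me3* (ENSMUSG00000030621, chromosome 7 from 89632392 to 89854359), the other mitochondrial malic enzyme, was barely expressed and was below the filter. Its values were 0.37, 1.29 and 0.38 TPM against 1.03, 0.64 and 0.90 TPM. Summed over the 3 malic enzymes, the tumors held 69.33 to 77.32 TPM in *Trp53fl/fl* and 45.15 to 65.98 TPM in *VP* mice. These sums did not overlap, although each of the 3 genes overlapped by itself. Of all single genes tested, 13.3% were lower in every *VP* tumor.

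*Idh1* (ENSMUSG00000025950, chromosome 1 from 65158616 to 65186500), which oxidizes isocitrate in the cytosol and in peroxisomes, was at 234.05, 251.44 and 184.17 TPM in *Trp53fl/fl* tumors and at 197.20, 184.29 and 223.43 TPM in *VP* tumors. *Idh2* (ENSMUSG00000030541, chromosome 7 from 80094846 to 80115392), its mitochondrial counterpart, was at 132.70, 93.40 and 162.43 TPM and at 132.83, 125.23 and 119.84 TPM. Both overlapped between the genotypes, with log2 fold changes of -0.14 (standard error 0.15) and -0.0050 (standard error 0.20). The sign of *Idh2* depended on the tumors used, as its value lay between -0.22 and 0.18 when single tumors were omitted. Within the *Trp53fl/fl* group the order of the tumors was opposite for these genes, with replicate 2 highest for *Idh1* and lowest for *Idh2*. The ratio of *Idh1* to *Idh2* accordingly ran from 1.13 to 2.69 there and from 1.47 to 1.86 in *VP* tumors.

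The kinases that supply NADP overlapped between the genotypes. *Nadk* (ENSMUSG00000029063, chromosome 4 from 155562378 to 155591001), the cytosolic NAD kinase, was at 91.54, 83.96 and 87.11 TPM and at 89.06, 93.67 and 94.57 TPM. Its log2 fold change of 0.078 (standard error 0.093) was the only positive one among the tested members and turned to -0.10 with centring on epithelial markers, which shifted the median of all genes by -0.18. *Nadk2* (ENSMUSG00000022253, chromosome 15 from 9071260 to 9110891), the mitochondrial NAD kinase, was at 8.64, 11.88 and 9.49 TPM and at 7.71, 9.18 and 6.96 TPM. The log2 fold change of *Nadk2* was -0.29 (standard error 0.17).

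Ordered by level, *Pgd* led in both genotypes, followed by *Idh1*, *Idh2*, *Nadk*, *G6pdx*, *Me2*, *Me1*, *Nnt*, *Nadk2* and *Me3*. In *Trp53fl/fl* tumors the neighbours *Me1* and *Nnt* overlapped, and all other neighbours in this order were apart in their ranges. In *VP* tumors the ranges overlapped for *Pgd* and *Idh1*, for *Me1* and *Nnt*, and for *Nnt* and *Nadk2*. *Nnt* and *Nadk2* were thus apart in *Trp53fl/fl* tumors and overlapped in *VP* tumors. That contrast also carries the difference for which *Nnt* was chosen and is no separate result.

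Summed over the 10 members, the tumors held 912, 880 and 885 TPM in *Trp53fl/fl* mice and 778, 774 and 841 TPM in *VP* mice, without overlap. The members of mitochondria (*Nnt*, *Idh2*, *Me2*, *Me3* and *Nadk2*) made up 23.7 ± 4.72% of that sum in *Trp53fl/fl* tumors and 22.9 ± 2.05% in *VP* tumors (SD, n = 3 each), with overlapping values. *Nnt* alone made up 12.6 ± 1.65% of the mitochondrial members in *Trp53fl/fl* tumors and 5.37 ± 0.877% in *VP* tumors (SD, n = 3 each), without overlap. The ratio of *Idh2* to *Nnt* was 5.32, 3.78 and 5.58 in *Trp53fl/fl* tumors and 14.98, 13.49 and 10.87 in *VP* tumors. *Idh2* lies in the same compartment. As *Nnt* was chosen for its difference between the genotypes, its share and this ratio restate that difference and are no separate result.

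**Figure D2:**
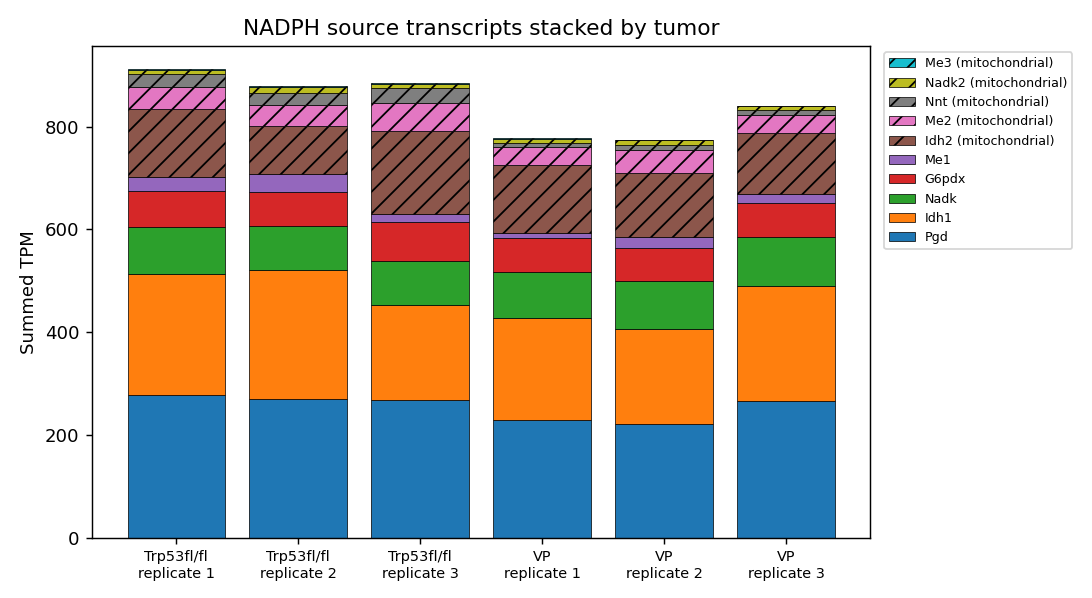
TPM of the 10 members stacked for each tumor, with hatching for the mitochondrial members. The totals are 880 to 912 TPM in *Trp53fl/fl* and 774 to 841 TPM in *VP* tumors, and *Pgd*, *Idh1* and *Idh2* make up most of each bar.

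Promoter sequences (RefSeq, GRCm38.p6) were at hand for 7 of the 10 genes, *Idh1*, *Idh2*, *Me1*, *Me3*, *G6pdx*, *Pgd* and *Nadk*. They cover 250 bases before to 50 bases after each listed start. The motif TGACNNNGC, the core of the antioxidant response element that binds Nrf2, was searched on both strands. It occurred at *Me1*, *G6pdx* and *Pgd*, that is 3 of 7 genes, and at 14.0% of the 27025 genes with a promoter sequence (12.4% of 32851 promoters). The match at *Pgd* overlaps annotated coding sequence at its second listed start. The stretches at *Me1* and *G6pdx* are shown because these members share the motif and had the widest and among the narrowest ranges of the 10. Capitals mark the match. The stretch of *Me1*, chr9:86695905-86695970 on the minus strand, has it on the gene's strand from 6 bases before the start. The stretch of *G6pdx*, chrX:74428879-74428987 on the minus strand, has it on the opposite strand from 57 bases before the start.
Me1: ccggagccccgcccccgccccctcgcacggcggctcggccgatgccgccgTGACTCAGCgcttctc
G6pdx: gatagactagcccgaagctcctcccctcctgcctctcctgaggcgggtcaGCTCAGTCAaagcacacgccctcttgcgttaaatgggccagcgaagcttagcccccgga
A match is a description of the letters and not of binding. The motif GGGCGG, searched in the same way, occurred at 6 of the 7 genes, all but *Me3*, and at 38.2% of all genes.

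The genes next to *Nnt* were examined to see whether its difference extended along the chromosome. The 5 nearest tested genes on each side lie from 19.6 kb to 3026 kb away. *Paip1*, a regulator of translation 19.6 kb away, was at 50.32, 59.51 and 39.01 TPM in *Trp53fl/fl* tumors and at 33.92, 27.69 and 36.04 TPM in *VP* tumors. *4833420G17Rik*, 53.8 kb away, was at 18.22, 24.90 and 21.87 TPM and at 13.83, 14.43 and 16.75 TPM. Both were lower in every *VP* tumor, with log2 fold changes of -0.58 and -0.50, but neither passed the limma adjustment (adjusted p = 0.317 for each). These were 2 of the 10 neighbours, and 13.3% of all genes tested were lower in every *VP* tumor. The other neighbours overlapped between the genotypes. On the other side *Fgf10* (543.3 kb), a growth factor and the nearest tested gene, had a log2 fold change of -0.29. The largest positive values were those of *Tmem267* (0.74) and *Ccl28* (0.60), an epithelial chemokine. Of the 10 neighbours, 4 were higher and 6 lower in *VP* tumors, with a median of -0.22, and none passed the limma adjustment, while 1 was higher and 2 were lower at an unadjusted p-value under 0.05 (4.51% and 8.0% of all genes). The ratio of *Paip1* to *Nnt* was 2.02, 2.41 and 1.34 in *Trp53fl/fl* and 3.82, 2.98 and 3.27 in *VP* tumors. This ratio also carries the difference for which *Nnt* was chosen.

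**Figure D3:**
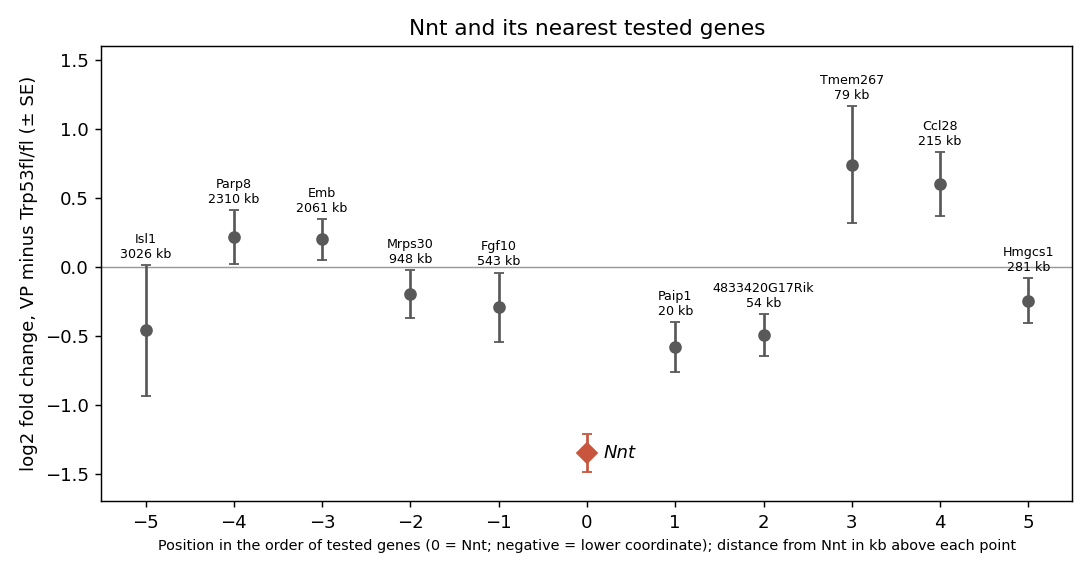
log2 fold change (*VP* minus *Trp53fl/fl*, with its standard error) of *Nnt* and the 5 nearest tested genes on each side, in their order along the chromosome with the distance from *Nnt* above each point. *Nnt* lies at -1.35, and its neighbours between -0.58 (*Paip1*) and 0.74 (*Tmem267*).

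Because *Nnt* differs between C57BL/6 substrains, 5 other genes described as differing in mRNA between them were examined. *Wdfy1*, which encodes an endosomal adaptor protein (ENSMUSG00000073643, chromosome 1 from 79702262 to 79776143, minus strand), was at 16.70, 23.09 and 15.57 TPM in *Trp53fl/fl* tumors and at 5.06, 4.66 and 4.11 TPM in *VP* tumors. Every *VP* tumor was far below every *Trp53fl/fl* tumor. *VP* tumors were lower by limma (log2 fold change -1.78, standard error 0.18, adjusted p = 0.0207). The list was chosen with earlier results of these data known, so this p-value is not an independent test. When single tumors were omitted, the log2 fold change of *Wdfy1* stayed between -1.88 and -1.61, but its limma adjusted p-value ran from 0.0413 to 0.103 and was under 0.05 only without *Trp53fl/fl* replicate 2. *Entpd4b* was at 32.13, 23.43 and 32.85 TPM and at 25.52, 13.47 and 15.57 TPM, with overlap (log2 fold change -0.70, limma adjusted p = 0.345). Its near-identical copy *Entpd4*, which may share reads with it, had a log2 fold change of 0.021. The values of *Ide*, which degrades insulin, and *Fgfbp3* were -0.31 and -0.20, with overlap. Of these 5 genes, 1 passed the limma adjustment, lower in *VP* tumors, and the median was -0.31. Strain background was not genotyped in the data used here. A difference in background between the mice, if there was one, cannot be told apart from the *Trp53* genotype.

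**Figure D4:**
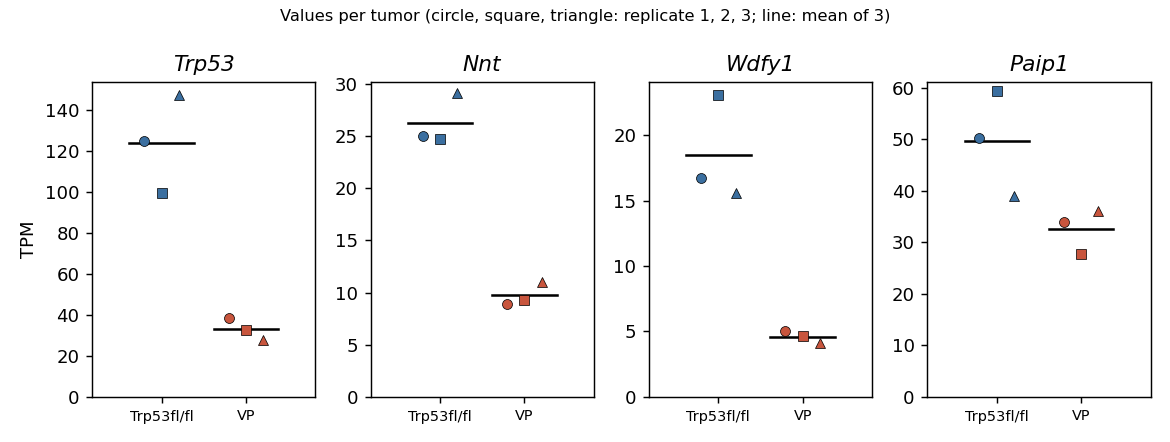
TPM of *Trp53*, *Nnt*, *Wdfy1* and *Paip1* in each tumor, with 1 point per tumor, a line at the mean of 3 and axes from 0. All 4 are lower in every *VP* tumor, with the smallest gap for *Paip1* (lowest *Trp53fl/fl* 39.01, highest *VP* 36.04 TPM).

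Over the 6 tumors, transcripts with a pattern like that of *Nnt* were sought by Pearson correlation of log2(TPM + 1) among the 1744 tested genes with an SD of at least 0.5. The tumors fall into the 2 genotypes, so these values mostly describe a shared difference between them. The 5 closest were the pseudogenes *Gm11425* (r = 0.986) and *Gm45665* (0.979), the ribosomal RNA *Rn18s* (0.982) and 2 assembled transcripts without a gene name (0.985 and 0.976). *Gm11425* was at 0.32 TPM or less and *Gm45665* at 0 in the *VP* tumors. Both pseudogenes passed the filter only through the *Trp53fl/fl* tumors, so their likeness to *Nnt* was partly fixed by the filter. *Rn18s* was at 6116, 5648 and 5458 TPM in *Trp53fl/fl* tumors and at 2382, 2575 and 2660 TPM in *VP* tumors, although the libraries were selected for poly(A) RNA. The part of this residual ribosomal RNA in the other values was not tested. The most opposite were *AA465934* (-0.995), the lectin *Reg3b* (-0.994), *Plac9a* (-0.993) and the complement genes *Cfb* (-0.991) and *C2* (-0.989).

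The other genes of NADPH metabolism gave few differences. Of 7 other enzymes that make NADPH, among them those of folate metabolism, 3 were higher and 4 lower in *VP* tumors, all overlapped between the genotypes, and the median log2 fold change was -0.046. *Aldh1l2*, a mitochondrial formyltetrahydrofolate dehydrogenase, and *H6pd*, the hexose-6-phosphate dehydrogenase of the endoplasmic reticulum, had the highest values (0.26 and 0.21). *Mthfd2l* and *Glud1*, glutamate dehydrogenase, had the lowest (-0.26 and -0.17). None passed the limma adjustment (lowest adjusted p = 0.539), and none had an unadjusted p-value under 0.05.

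Of the pentose phosphate pathway beyond *G6pdx* and *Pgd*, 7 of 9 genes were tested, as *Tktl1* and *Tktl2* were listed at 0 in every tumor. Here 2 were higher and 5 lower, with a median of -0.040. *Rpe*, ribulose-phosphate epimerase, had the lowest value (-0.49) and *Pgls*, the lactonase between G6PDX and PGD, the next (-0.30). *Shpk* (0.28) and *Tigar*, a p53 target that slows glycolysis (0.023), had the highest. *Tigar* was at 8.98, 10.31 and 8.99 TPM in *Trp53fl/fl* and at 9.24, 9.15 and 10.37 TPM in *VP* tumors, with full overlap. None passed the limma adjustment (lowest adjusted p = 0.408) or had an unadjusted p-value under 0.05.

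For 12 genes that supply isocitrate and malate, the median was 0.086, with 8 higher and 4 lower, and all overlapped between the genotypes. *Idh3b*, a subunit of the NAD-dependent isocitrate dehydrogenase, was among the highest (0.17), and *Idh3a*, the catalytic subunit, and *Fh1*, fumarase, were lowest (-0.15 and -0.13). None passed the limma adjustment or had an unadjusted p-value under 0.05. Of 14 genes for the supply and removal of NAD and NADP, 11 were tested, 5 higher and 6 lower, with a median of -0.077. *Nmnat3* (0.53) and *Nadsyn1*, NAD synthetase (0.50), were highest, and *Noct*, an NADPH phosphatase (-0.33), and *Nmnat1*, the nuclear NAD-synthesizing adenylyltransferase (-0.24), lowest. *Nadsyn1* was at 10.58, 13.77 and 12.78 TPM and at 14.73, 21.19 and 18.06 TPM, without overlap. Of the 11, 1 was higher and 3 were lower without overlap, *Noct* and *Nmnat1* among the 3, beside 6.03% and 13.3% of all genes. None of the 11 passed the limma adjustment (lowest adjusted p = 0.341). At an unadjusted limma p-value under 0.05, 1 was higher and 1 lower, beside 4.51% and 8.0% of all genes.

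The 20 enzymes that use NADPH had a median of 0.032, with 12 higher and 8 lower in *VP* tumors. *Nox1*, the NADPH oxidase of colonic epithelium, had the highest value. It was at 22.82, 11.92 and 18.68 TPM in *Trp53fl/fl* tumors and at 40.60, 35.92 and 33.44 TPM in *VP* tumors, without overlap (log2 fold change 1.04, standard error 0.23, limma adjusted p = 0.234). *Dhcr7*, the last enzyme of cholesterol synthesis, followed, at 55.14, 62.13 and 71.74 TPM and at 75.96, 111.69 and 95.48 TPM, also without overlap (log2 fold change 0.57, limma adjusted p = 0.312). The lowest were *Nqo1*, a quinone reductase (-0.41, with overlap), and *Txnrd1*, cytosolic thioredoxin reductase (-0.32, without overlap, limma adjusted p = 0.416). *Gsr*, glutathione reductase, overlapped at 111.26 to 131.11 TPM and 113.81 to 118.60 TPM. None of the 20 passed the limma adjustment. Before adjustment, *Nox1* and *Dhcr7*, 2 of 20, had a p-value under 0.05, as did 12.5% of all genes.

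**Figure D5:**
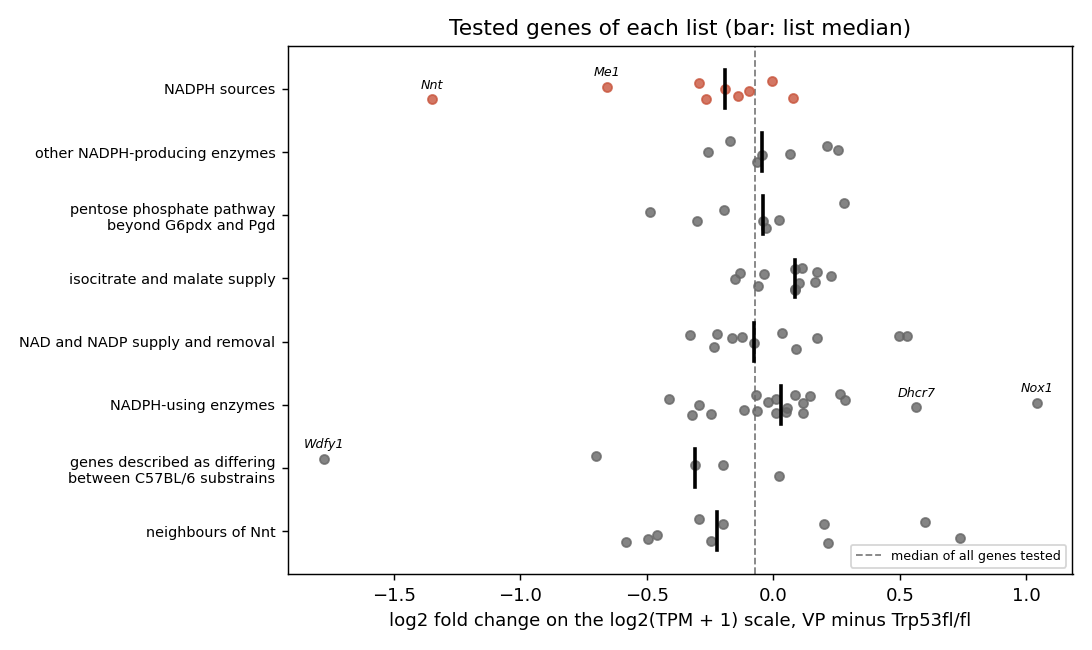
log2 fold change (*VP* minus *Trp53fl/fl*) of the tested genes of each list, with 1 point per gene, a bar at each list's median and a dashed line at the median of all genes tested (-0.070). *Nnt* (-1.35) and *Wdfy1* (-1.78) lie farthest to the left, and *Nox1* (1.04) farthest to the right.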

How the data were processed

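The authors deposited TPM per gene for 6 tumors, with 2 decimals and a column for each sample, from poly(A)-selected libraries read from both ends. The methods do not say whether several tumors were pooled in a library. The submitters' processing notes name HISAT2, StringTie and mm9, and the annotation, versions and filters are not given in the sources used here. The TPM of the authors keep no depth, so no counting error can be attached. Of the gene IDs, 96.2% were found in GENCODE M21 (GRCm38), the source of all gene coordinates given here. No columns were identical.

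From the deposited TPM, log2(TPM + 1) was tested with limma 3.58.1 in R 4.3.3 (genotype only, empirical Bayes with trend, two-sided, Benjamini-Hochberg adjustment over 15117 genes), after a check on simulated data. The members and lists were chosen with earlier results of these data known. Named are all members, *Trp53*, called list genes, the 2 highest and 2 lowest of each list, the nearest genes of *Nnt* and the 5 most and least alike. *Ide* and *Gsr*, and *S100a8*, *S100a9*, *Mpo*, *Elane*, *Camp*, *Csf3r* and *Ly6g* among the markers, were named after their values were seen. A gene that the rule would name is not reported here.

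Alternatives were another pseudocount, no filter or a stricter one, other scalings, a replicate block, no trend, array weights and leaving out each tumor.

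The markers of other cell types were macrophages (8 tested, median log2 fold change 0.13), T and B cells (6, -0.12), fibroblasts (6, -0.14), smooth muscle (6, 0.26) and endothelium (5, 0.14), with no limma adjusted p-value under 0.05.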

Additional observations from a re-analysis of the deposited data

How the results depend on the processing

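The number of genes with an adjusted p-value under 0.05 was 7 without the filter, 44 with epithelial centring, 10 with the replicate number as a block, 323 with array quality weights and 44 at an adjusted p-value under 0.1, and 6 to 28 on omitting single tumors, against 25. The log2 fold change of *Nnt* was -1.53 with epithelial centring, which lowered the median of all genes by the same 0.18 and so shifts every value alike, and -1.43 to -1.27 on omitting single tumors. The median of the members was -0.12 with median-of-ratios rescaling, -0.37 with epithelial centring and -0.21 to -0.14 on omitting single tumors. With epithelial centring the list medians were -0.23 (other NADPH-producing enzymes), -0.22 (pentose phosphate pathway), -0.094 (isocitrate and malate), -0.26 (NAD and NADP), -0.15 (NADPH users), -0.49 (substrain genes) and -0.40 (neighbours). With median-of-ratios rescaling they were 0.030, -0.011 and 0.098 for the pentose phosphate pathway, NAD and NADP, and NADPH users, with quantile normalization -0.088 and 0.0092 for the first and second of these, and with array quality weights -0.088, -0.018 and 0.058, and -0.32 for the neighbours. A mean of at least 5 TPM gave -0.12 for the pentose phosphate pathway and -0.51 for the substrain genes. On omitting single tumors the medians ran from -0.19 to 0.045 (pentose phosphate pathway), -0.11 to 0.030 (NAD and NADP), -0.013 to 0.046 (NADPH users), -0.44 to -0.26 (substrain genes) and -0.22 to -0.090 (neighbours). The medians of the substrain genes and of the neighbours were below 0 in every setting run. So was the median of all genes tested, from -0.25 with epithelial centring to -0.0074 with median-of-ratios rescaling. The medians of the other 5 lists changed sign in at least 1 setting. The 1 gene called over the 7 lists, *Wdfy1*, became 0 without the filter (adjusted p = 0.116) and with the replicate block (adjusted p = 0.0883), 2 with array quality weights and 0 to 1 on omitting single tumors. The adjusted p-values are limma's. The mitochondrial percentage differed between the genotypes by -0.85 percentage points, and by -3.01 to 1.67 on omitting single tumors. Deviations from the genotype means correlated at 0.019, -0.052 and 0.018 for same-numbered tumors. For the other pairs of tumors the correlations ran from -0.108 to 0.095. With 3 tumors per genotype, these values cannot decide whether the replicate numbers pair the tumors. The cause of each change was not tested. Depth is unknown, so no counting error can be given for any gene.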
